A study of Anopheles gambiae with 9 samples.

Results

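The 5 genes described here belong to the sex determination pathway of the malaria mosquito Anopheles gambiae: doublesex (dsx, AGAP004050), fruitless (fru, AGAP000080), femaleless (fle, AGAP013051), SOA (AGAP005748) and Yob (AGAP029221). They were chosen by identifier, and every row of the deposited table that carries one of the 5 identifiers was taken. This gave 11 transcripts, 6 of fru, 2 of dsx and 1 of each other gene, out of 16066 transcripts of 13845 genes. Of the 11, 10 had enough counts to be tested, and the transcript left out, AGAP000080.R652, is described by its counts.

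In Anopheles, the Y-linked gene Yob is the primary signal for maleness. In its absence, femaleless, which encodes a factor with RNA-binding domains, is needed for the female splicing of dsx and fru. Both of these encode transcription factors, a DM-domain protein for dsx and BTB zinc-finger proteins for fru, and both genes are spliced differently in the sexes, so that dsx yields DsxF in females and DsxM in males. SOA encodes a protein that acts in males to raise the output of the single X chromosome. Which of the listed dsx and fru transcripts carries the female-specific or male-specific exon is not stated in the sources used here, so each is called by its identifier.

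RNA came from pools of pedicels, the antennal segment that houses the Johnston's organ, the mosquito ear. The 3 groups were dsxF+/+ XY males, dsxF-/- XX intersex females, which carry a loss of function in the female-specific exon of dsx, and dsxF+/+ XX females, with 3 libraries each that the study describes as biological repeats. Both dsxF+/+ groups were of the G3 strain and were separated by sex as pupae, whereas the dsxF-/- mosquitoes were of a dsxF mutant strain and were not separated as pupae. Effects of the mutation, of strain and of rearing cannot be told apart here. Adults aged 2 to 3 days were entrained to light/dark cycles for 3 days and collected at the onset of dusk, and cDNA was made with a SMART-Seq v4 kit. The comparisons are named MvF (dsxF+/+ XY over dsxF+/+ XX), IvF (dsxF-/- XX over dsxF+/+ XX) and MvI (dsxF+/+ XY over dsxF-/- XX), and a positive log2 fold change means a higher level in the group named first.

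The libraries held 14177255 to 18379886 estimated counts. Each column name ends in a number, called the sample-sheet number here, and neighbouring numbers were grouped into 3 runs. The sources do not state what these numbers stand for or whether the runs were batches. In dsxF+/+ XX replicate 3, 23.6% of all counts belonged to its top 10 transcripts, a share that ran from 8.95% to 14.2% elsewhere. The second libraries of the 2 dsxF+/+ groups deviated together from their group means (r = 0.452 across the transcripts tested), and both were high for several transcripts described here. The 7 markers of ciliated auditory neurons examined were taken from transcripts that the paper called higher in MvF and IvF in these same libraries. All 7 were called higher in both here, where 32.7% and 14.4% of genes tested were called in either direction. Their summed level was 54399 to 60644 normalized counts in dsxF+/+ XY, 30921 to 40789 in dsxF-/- XX and 11577 to 13227 in dsxF+/+ XX libraries. The calls and the low dsxF+/+ XX level followed from the choice of list and carry no weight. In MvI, 2 of the 7 were called higher, both axonemal dynein intermediate chains (AGAP008689 and AGAP011540) that the paper had also called higher there. Another 1, tektin-2, was called lower (-1.08, edgeR adjusted p = 0.00596). The summed level is largely that of tektin-3, at a mean of 32728 of 57917 in dsxF+/+ XY, which was not called in MvI (edgeR adjusted p = 0.188). The paper had placed tektin-3, tektin-2, nompB, nanchung and kintoun among transcripts without a difference in MvI in these libraries. A missing call of these markers in MvI thus carries no weight either. In RNA from whole pedicels, fewer cells of a type and less RNA per cell cannot be told apart. The part of this marker gradient in the differences given here was not tested. Normalized counts are counts scaled for the effective size of each library, without a correction for transcript length, so levels of different genes or transcripts are not compared.

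The targeted gene, dsx, was detected in every library, and both of its transcripts were lower in dsxF+/+ XY than in either XX group. AGAP004050-RB stood at 159.7, 529 and 243 normalized counts in dsxF+/+ XY libraries, at 4401, 2391 and 2510.4 in dsxF-/- XX and at 8015, 17679.5 and 6592 in dsxF+/+ XX. The 3 groups did not overlap, with dsxF-/- XX lying between the controls. Reads were assigned to reference transcripts. Whether the mutation changed the assignment of reads to AGAP004050-RB in dsxF-/- XX was not tested, for these levels or for the shares given below. AGAP004050-RA stood at 3488, 5478 and 3664 normalized counts in dsxF+/+ XY libraries, at 10225, 7015 and 8790.2 in dsxF-/- XX and at 6040.2, 9773 and 6842 in dsxF+/+ XX. Every dsxF+/+ XY library was below every XX library for this transcript, and the ranges of the 2 XX groups overlapped.

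**Figure D1:**
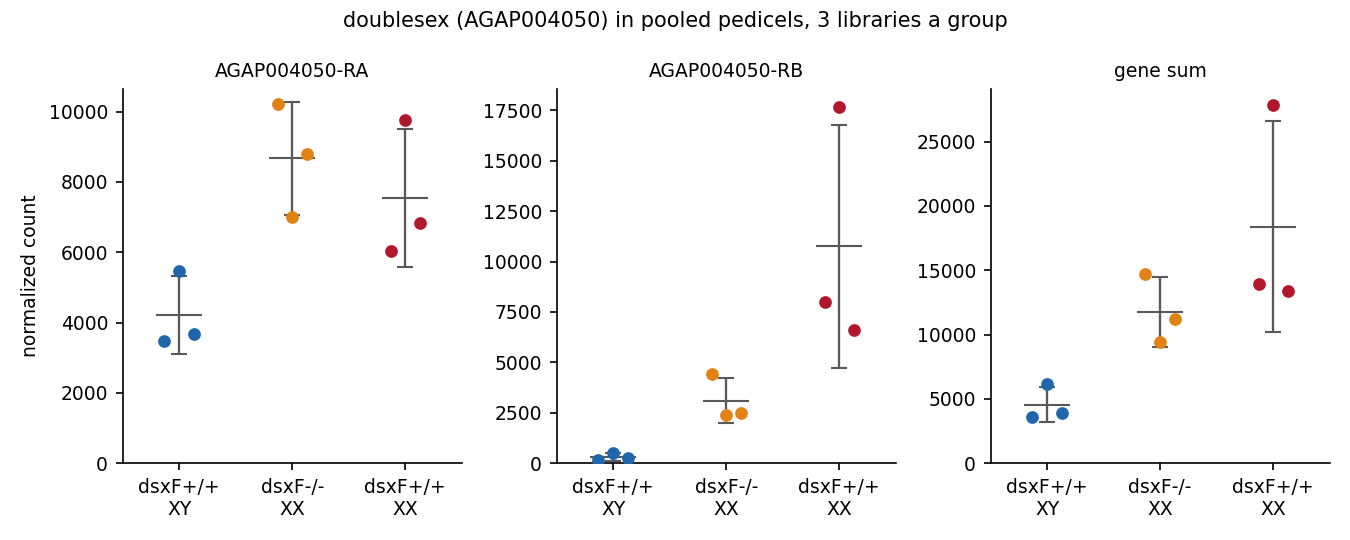
Normalized counts (vertical axes, linear from 0) of both doublesex transcripts and of their sum, with groups in the order dsxF+/+ XY, dsxF-/- XX, dsxF+/+ XX. Points are libraries in the order of their replicate number, the horizontal mark is the group mean and bars are SD (n = 3). For AGAP004050-RB the means are 310.7, 3101 and 10762, and no 2 groups overlap.

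In MvF, AGAP004050-RB fell by 5.12 ± 0.60 on the log2 scale (SE; edgeR adjusted p = 0.000290), with a mean of 310.7 ± 193.6 normalized counts in dsxF+/+ XY and 10762 ± 6033 in dsxF+/+ XX (SD, n = 3 each). AGAP004050-RA fell by 0.84 ± 0.27 (edgeR adjusted p = 0.0412). The sum of the 2 transcripts, which does not depend on how reads were divided between them, was 3622, 6118 and 3896 in dsxF+/+ XY libraries, against 13932, 27861 and 13375 in dsxF+/+ XX, and fell by 2.02 ± 0.35 (edgeR adjusted p = 0.00152). The calls for AGAP004050-RB and for the sum were kept under all 16 alternative settings, including without dsxF+/+ XX replicate 2 (-4.56 and -1.63) and without dsxF+/+ XX replicate 3 (-5.38 and -2.20). The call for AGAP004050-RA was lost without dsxF+/+ XY replicate 1 or 3 (edgeR adjusted p = 0.116 and 0.131) and without dsxF+/+ XX replicate 2 or 3 (0.0987 and 0.0736).

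In MvI, AGAP004050-RB fell by 3.32 ± 0.55 on the log2 scale (edgeR adjusted p = 0.00770) and kept this call under all alternatives. AGAP004050-RA fell by 1.04 ± 0.27 (edgeR adjusted p = 0.0484) and the dsx sum by 1.37 ± 0.34 (edgeR adjusted p = 0.0314), with sums of 14685, 9386 and 11214 in the dsxF-/- XX libraries. Both of these calls were lost when dsxF+/+ XY replicate 1 or 3 or any dsxF-/- XX library was left out. The edgeR adjusted p then was 0.146, 0.165, 0.160, 0.0680 and 0.126 for AGAP004050-RA, and 0.106, 0.123, 0.0964, 0.0534 and 0.0683 for the sum, in the order dsxF+/+ XY replicates 1 and 3 and dsxF-/- XX replicates 1, 2 and 3. In all, 10 of 16 alternatives ended the call of AGAP004050-RA, among them the sample-sheet run as a block (edgeR adjusted p = 0.0599), DESeq2 size factors (0.0571) and no filter on low counts (0.0538).

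In IvF, neither dsx transcript passed the test. For AGAP004050-RB the log2 fold change was -1.80 ± 0.52 (edgeR adjusted p = 0.0547), with means of 3101 ± 1127 in dsxF-/- XX and 10762 ± 6033 in dsxF+/+ XX. DESeq2 and limma-voom called the same difference (adjusted p = 0.00409 and 0.0415), and without dsxF+/+ XX replicate 2 it was -1.23 (edgeR adjusted p = 0.108). AGAP004050-RA differed by 0.20 ± 0.27 (95% interval -0.40 to 0.80) and the sum by -0.64 ± 0.34 (edgeR adjusted p = 0.248), and the sums of the 2 groups overlapped. Within the 3 runs of neighbouring sample-sheet numbers, which hold 1 library of each group, the log2 ratio of AGAP004050-RB was -1.39, -0.86 and -2.89.

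The division of dsx counts between its 2 transcripts also differed among the groups. AGAP004050-RB held 4.38%, 8.81% and 6.23% of the dsx counts in dsxF+/+ XY libraries, 30.1%, 25.4% and 22.2% in dsxF-/- XX and 57.0%, 64.4% and 49.1% in dsxF+/+ XX. The 95% Wilson intervals of these shares reached 0.551 to 0.906 percentage points to either side, covering counting error only. No library of one group came within the range of another, although with 3 libraries against 3 an exact two-sided permutation test cannot go below p = 0.1.

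In edgeR's test of transcript usage, which sets each transcript's change against that of its gene, AGAP004050-RB fell relative to dsx as a whole by 3.10 in MvF (adjusted p = 0.000707). The values were -1.16 in IvF (adjusted p = 0.360) and -1.94 in MvI (adjusted p = 0.0647). Without dsxF+/+ XY replicate 2 the MvI value was -2.30 and passed (edgeR adjusted p = 0.0360). The edgeR test over both transcripts of dsx gave an adjusted p of 0.000147 in MvF, 0.0656 in IvF and 0.0244 in MvI.

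**Figure D2:**
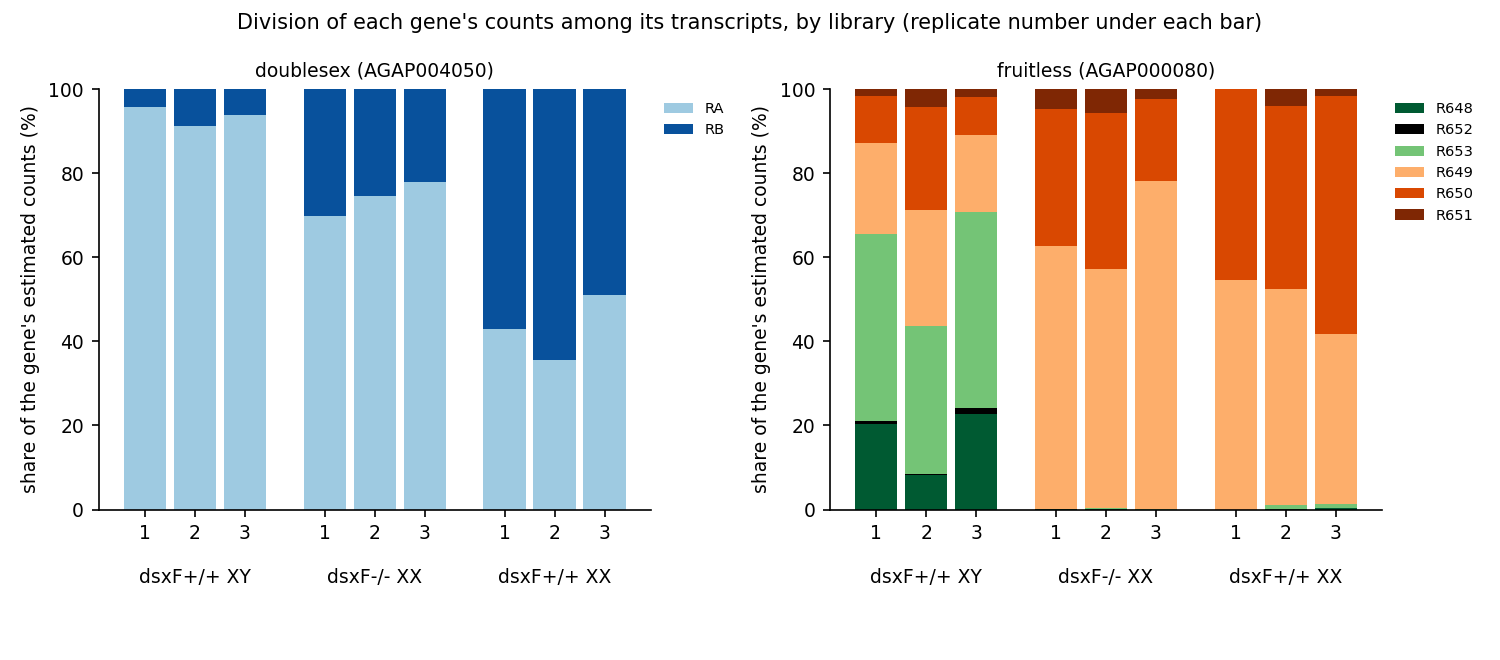
Share of each gene's estimated counts (vertical axis, percent) given to each of its transcripts, for doublesex (left) and fruitless (right), with 1 bar per library in the order dsxF+/+ XY, dsxF-/- XX, dsxF+/+ XX. AGAP004050-RB takes 4.38% to 8.81%, 22.2% to 30.1% and 49.1% to 64.4%, and the green and black parts of the fruitless bars (R648, R652 and R653) are large in the dsxF+/+ XY libraries alone.

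Yob, the Y-linked signal upstream of dsx, was counted in all dsxF+/+ XY libraries and in no XX library. Its level was 284.2, 301.5 and 270.3 normalized counts in dsxF+/+ XY libraries, against 0 in each of the 3 dsxF-/- XX and each of the 3 dsxF+/+ XX libraries. A total of 824 counts in dsxF+/+ XY against a floor of 3 counts over each XX group made the gene at least 285-fold higher in MvF and at least 291-fold higher in MvI. Yob passed the filter on low counts through the dsxF+/+ XY libraries alone and had to differ, so no p is given. The floor of 3 counts covers counting error only. No fold is given for IvF, where both groups were at 0.

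The estimated counts of Yob were not whole numbers, although the gene has 1 transcript in the table. In each dsxF+/+ XY library they summed with those of AGAP029375-RA to a whole number (335, 293 and 393 counts, within 0.002), and AGAP029375-RA, too, was at 0 in all 6 XX libraries. Yob took 81.1%, 83.0% and 78.7% of these sums, so its level in dsxF+/+ XY rests in part on how reads were divided between the 2 transcripts. Across the series, the presence of Yob counts went with the labels in all 9 libraries.

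The level of femaleless, the factor needed for female splicing, was highest in dsxF+/+ XY pedicels. It was 784, 1120.3 and 825.5 normalized counts in dsxF+/+ XY libraries, 572, 533 and 492 in dsxF-/- XX and 275, 717 and 470.3 in dsxF+/+ XX. All dsxF+/+ XY libraries lay above all XX libraries, and the dsxF-/- XX values lay within the range of dsxF+/+ XX.

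As a gene sum, femaleless was higher by 0.90 ± 0.31 on the log2 scale in MvF (edgeR adjusted p = 0.0462). The same counts missed the threshold in the fit over transcripts (edgeR adjusted p = 0.0528), and passed it there when the sample-sheet run was a block in the fit (0.0356). The gene-sum call was lost without dsxF+/+ XX replicate 1 or 3 (log2 fold change 0.62 and 0.88, edgeR adjusted p = 0.0936 and 0.124) and without any 1 dsxF+/+ XY library (0.0553, 0.135 and 0.0821). With only the groups compared in the fit, this MvF call was lost too. Femaleless differed by 0.77 ± 0.31 in MvI (edgeR adjusted p = 0.184), and passed there with only the groups compared in the fit (edgeR adjusted p = 0.0377 as a sum and 0.0484 as a transcript). In IvF it differed by 0.13 ± 0.31 (95% interval -0.55 to 0.81).

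**Figure D3:**
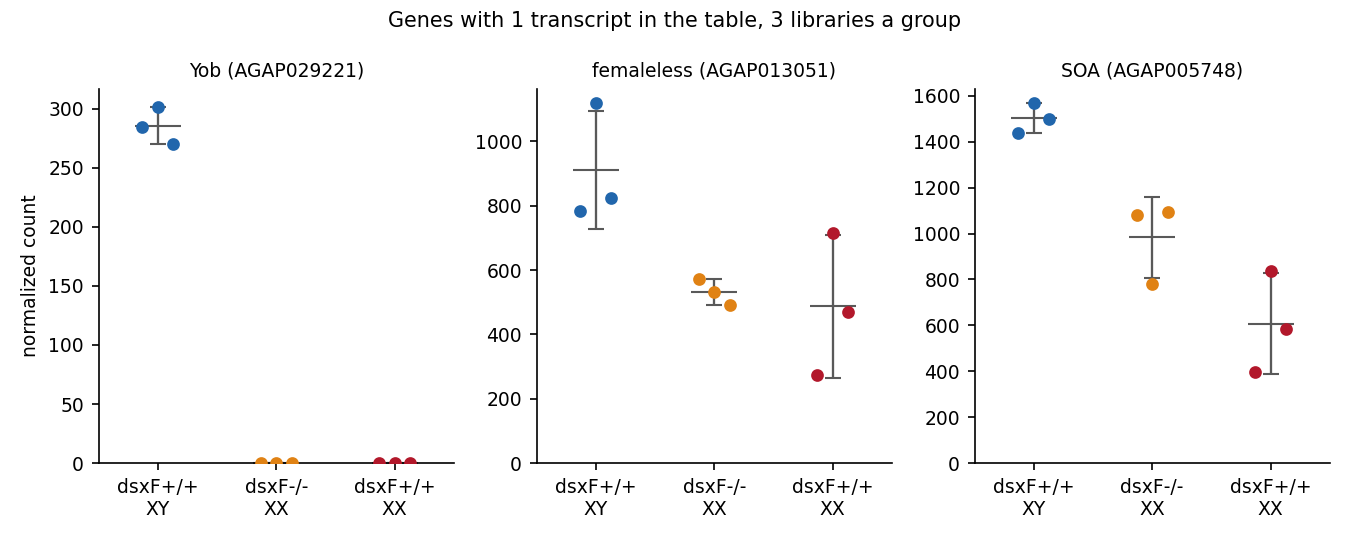
Normalized counts (vertical axes, linear from 0) of Yob, femaleless and SOA, each with 1 transcript in the table, with groups in the order dsxF+/+ XY, dsxF-/- XX, dsxF+/+ XX. Points are libraries, the horizontal mark is the mean and bars are SD (n = 3). Yob is at 0 in all 6 XX libraries, and the dsxF+/+ XY points of femaleless and SOA lie above every XX point.

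The 6 transcripts of fru fell into 3 that were high in dsxF+/+ XY libraries alone and 3 that were present in all groups. Among the first, AGAP000080.R648 stood at 325.9, 328.5 and 235.7 normalized counts in dsxF+/+ XY libraries, against at most 0.236 in dsxF-/- XX and at most 3.38 in dsxF+/+ XX. AGAP000080.R653 stood at 711, 1395 and 485 in dsxF+/+ XY libraries, against 11.8, 14.5 and 7.92 in dsxF-/- XX and 0, 16.6 and 7.66 in dsxF+/+ XX. AGAP000080.R652, the transcript not tested, had 39 counts over the dsxF+/+ XY libraries and rounded to 0 in each XX library, which makes it at least 13.5-fold higher in MvF and at least 13.7-fold higher in MvI against a floor of 3 counts over the group.

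AGAP000080.R653 was higher by 6.68 ± 0.85 on the log2 scale in MvF (edgeR adjusted p = 0.000443) and by 6.19 ± 0.82 in MvI (edgeR adjusted p = 0.00277). Both calls held under all 16 alternatives. AGAP000080.R648 was at least 298-fold higher in MvI, on 849 counts in dsxF+/+ XY libraries against 0 rounded counts in dsxF-/- XX. It passed the filter on low counts through the dsxF+/+ XY libraries alone, so no p is given for it in MvF or MvI.

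Between the 2 XX groups neither transcript passed the test. AGAP000080.R653 differed by 0.48 ± 0.85 in IvF (95% interval -1.43 to 2.40), on 36 counts in dsxF-/- XX and 25 in dsxF+/+ XX. For AGAP000080.R648 the totals were 0 counts in dsxF-/- XX and 5 in dsxF+/+ XX (edgeR adjusted p = 0.120), and without dsxF+/+ XX replicate 1 the difference passed on these few counts (0.0398).

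**Figure D4:**
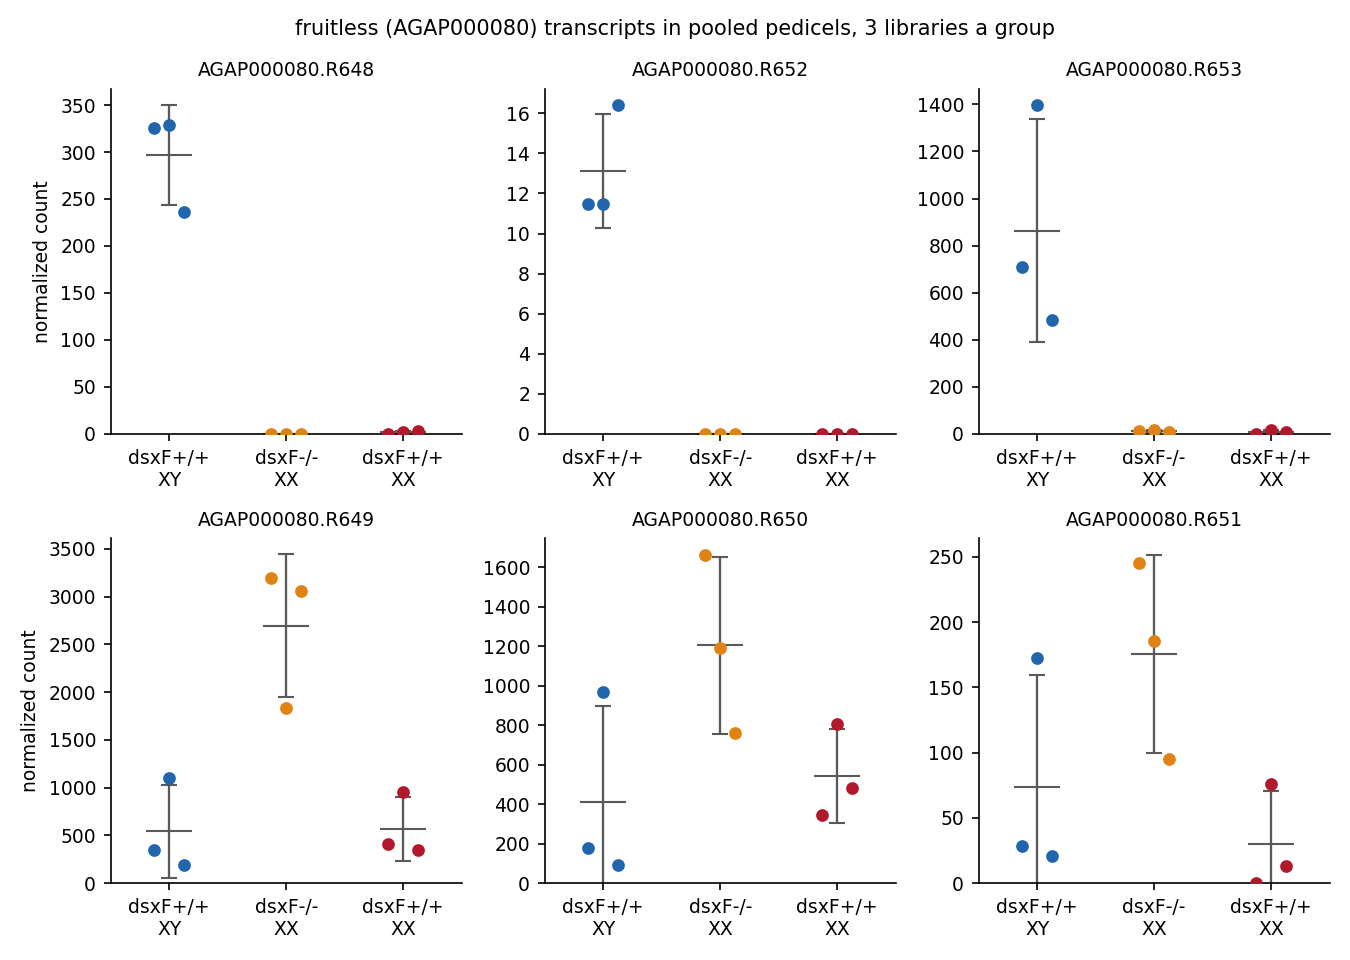
Normalized counts (vertical axes, linear from 0, scaled separately) of the 6 fruitless transcripts, with groups in the order dsxF+/+ XY, dsxF-/- XX, dsxF+/+ XX. Points are libraries in the order of their replicate number, the horizontal mark is the mean and bars are SD (n = 3), ending at the axis where they would pass below 0. The upper row shows the transcripts near 0 in all XX libraries, and in the lower row AGAP000080.R649 lies above both controls in all 3 dsxF-/- XX libraries.

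Among the transcripts present in all groups, AGAP000080.R649 stood at 346, 1100.1 and 190.3 normalized counts in dsxF+/+ XY libraries, at 3194, 1834 and 3054 in dsxF-/- XX and at 414, 955 and 345 in dsxF+/+ XX. All 3 dsxF-/- XX libraries were above all 6 dsxF+/+ libraries, and the second library of each dsxF+/+ group was its highest. The mean was 545 ± 487 in dsxF+/+ XY libraries, 2694 ± 748 in dsxF-/- XX libraries and 571 ± 334 in dsxF+/+ XX libraries (SD, n = 3 each).

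The edgeR test did not call AGAP000080.R649, at 2.24 ± 0.64 on the log2 scale in IvF (adjusted p = 0.0536) and -2.31 ± 0.64 in MvI (adjusted p = 0.0644). DESeq2 (adjusted p = 0.00260 and 0.00251) and limma-voom (0.0302 and 0.0298) called both differences. Without dsxF+/+ XX replicate 2 the IvF value was 2.83 (edgeR adjusted p = 0.0321), without dsxF+/+ XX replicate 3 it was 1.99 (0.168), and without dsxF+/+ XY replicate 2 the MvI value was -3.33 (0.0122). Within the runs of sample-sheet numbers its log2 ratio was 3.15, 2.95 and 0.94 in IvF and -3.14, -4.07 and -0.74 in MvI, the smallest sizes being those of the run that holds the second libraries.

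AGAP000080.R650 ranged from 93.1 to 969 normalized counts in dsxF+/+ XY libraries, from 763 to 1661 in dsxF-/- XX and from 343 to 808 in dsxF+/+ XX. AGAP000080.R651 ranged from 20.4 to 173 in dsxF+/+ XY libraries, from 94.9 to 246 in dsxF-/- XX and from 0 to 76.3 in dsxF+/+ XX. Neither was called in any comparison by the edgeR fit. AGAP000080.R650 passed in MvF and MvI without dsxF+/+ XY replicate 2, at -2.01 and -3.16 (edgeR adjusted p = 0.0196 and 0.0120).

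The fru gene sum was 1588, 4051 and 1038 normalized counts in dsxF+/+ XY libraries, 5134, 3222 and 3890.2 in dsxF-/- XX and 750.4, 1885 and 847 in dsxF+/+ XX. The dsxF-/- XX libraries were above all dsxF+/+ XX libraries, and overlapped with dsxF+/+ XY through the second library of that group.

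In IvF the fru sum was higher by 1.81 ± 0.51 on the log2 scale (edgeR adjusted p = 0.0409). The call was lost without any 1 dsxF-/- XX library (edgeR adjusted p = 0.116, 0.0671 and 0.0895) and without dsxF+/+ XX replicate 1 or 3 (0.118 and 0.143), the log2 fold change then being 1.58 to 1.97. With both control libraries numbered 2 left out, a setting added after seeing the data, it was 2.37 (edgeR adjusted p = 0.000647). Within the runs of sample-sheet numbers the log2 ratio was 2.20, 2.77 and 0.77. The sum differed by 0.94 ± 0.50 in MvF (edgeR adjusted p = 0.176), and by 1.44 with a call (0.0445) without dsxF+/+ XX replicate 2. In MvI it differed by -0.88 ± 0.50 (edgeR adjusted p = 0.386), and by -1.66 with a call (0.00469) with both control libraries numbered 2 left out.

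Summed, R648, R652 and R653 made up 65.5%, 43.6% and 70.8% of the fru counts in dsxF+/+ XY libraries, against 0.202% to 0.457% in dsxF-/- XX and 0% to 1.30% in dsxF+/+ XX. The lowest of the dsxF+/+ XY shares, in replicate 2, came with the highest level of R649, R650 and R651 in that group, 2242 normalized counts together against 551 and 304 in replicates 1 and 3. The level of R648, R652 and R653 together in dsxF-/- XX, 11.5 ± 3.43, was within the range of dsxF+/+ XX, 0 to 18.2. R649, R650 and R651 together averaged 4076 ± 954 in dsxF-/- XX, against 1145 ± 602 in dsxF+/+ XX (SD, n = 3 each).

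Relative to fru as a whole, edgeR's test of transcript usage called AGAP000080.R653 higher in MvF (5.75 on the log2 scale, adjusted p = 0.000640) and in MvI (7.09, adjusted p = 0.000369). The edgeR test over the 5 fru transcripts that could be tested gave an adjusted p of 0.605 in IvF. For MvF and MvI no p of this test is given. It includes AGAP000080.R648, which passed the filter on low counts through the dsxF+/+ XY libraries alone. The change of fru against which AGAP000080.R653 was set includes AGAP000080.R648 too. In IvF the share of AGAP000080.R649 among R649, R650 and R651 was 57.1% to 78.1% in dsxF-/- XX and 41.1% to 54.7% in dsxF+/+ XX, and its usage differed by 0.41 (edgeR adjusted p = 1.00).

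SOA, the factor for the male X chromosome, was highest in dsxF+/+ XY and stood between the controls in dsxF-/- XX. Its gene sum was 1439, 1570.2 and 1501 normalized counts in dsxF+/+ XY libraries, 1079.6, 779 and 1093 in dsxF-/- XX and 399, 838 and 584 in dsxF+/+ XX. The dsxF+/+ XY libraries varied little and lay above all XX libraries, and the 2 XX groups overlapped through dsxF+/+ XX replicate 2.

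In MvF, SOA was higher by 1.31 ± 0.27 on the log2 scale (edgeR adjusted p = 0.00386), and the transcript kept its call under all 16 alternatives. SOA differed by 0.70 ± 0.26 in IvF (edgeR adjusted p = 0.109) and by 0.61 ± 0.26 in MvI (edgeR adjusted p = 0.222), so that no neighbours in this order were called apart. Without dsxF+/+ XX replicate 2 the IvF value was 0.97 and passed (edgeR adjusted p = 0.0221).

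**Figure D5:**
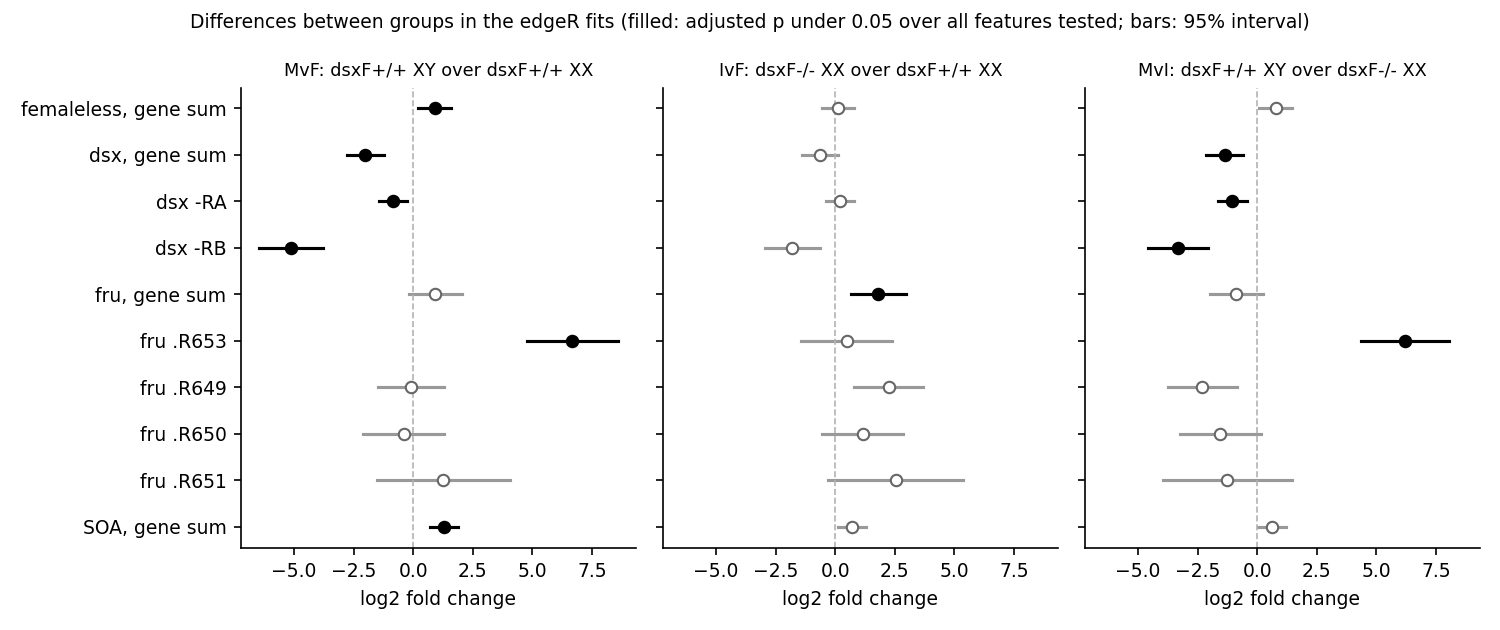
Log2 fold changes (horizontal axes) with 95% intervals in MvF, IvF and MvI for the gene sums of femaleless, doublesex, fruitless and SOA and for 6 transcripts. Filled points passed an edgeR adjusted p under 0.05 over all features tested. Yob, AGAP000080.R648 and AGAP000080.R652, at or near 0 in the XX groups, are not drawn. In IvF the fruitless sum (1.81) is the single filled point.

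Over all members, edgeR called 6 of the 10 transcripts tested in MvF, 0 in IvF and 5 in MvI, where 29.8%, 11.1% and 7.39% of the 12379 transcripts tested were called. In IvF, 4 member transcripts, AGAP000080.R648 among them, had an unadjusted p under 0.05, and DESeq2 and limma-voom each called 2. No share over all transcripts was taken for these counts, so they are no result about the members. Of the 5 gene sums, 4 were called in MvF, 1 in IvF and 2 in MvI, beside 32.7%, 14.4% and 9.24% of 10479 genes. Of the 7 dsx and fru transcripts in the test of usage, 3 were called in MvF, 0 in IvF and 2 in MvI, where 4.51%, 1.37% and 0.903% of 3213 transcripts of 1313 genes were. In IvF, 1 of the 7 had an unadjusted p under 0.05 in edgeR's usage test, and limma-voom called 0, again without a share over all transcripts. AGAP000080.R648 and Yob passed the filter on low counts through the dsxF+/+ XY libraries alone, so their calls carry no weight in any of these counts. Without them, 4 of 8 transcripts, 3 of 4 gene sums and 2 of 6 transcripts in the usage test were called in MvF, and 3 of 8, 1 of 4 and 1 of 6 in MvI. The same counts in IvF were 0 of 8, 1 of 4 and 0 of 6.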

How the data were processed

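Pools of pedicels from 3 groups, with 3 libraries each, were sequenced. After FastQC and MultiQC checks, the authors assigned reads to AgamP4 transcripts with kallisto (no version is stated). The deposited table holds the resulting estimated counts, one per transcript in each library, and these carry no scaling for depth or transcript length. Reads shared by transcripts were divided by estimation, so transcript values are less certain than gene sums. No column was left unassigned (0).

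Estimated counts, or their sums per gene, were rounded and tested with edgeR 4.0.16 (R 4.3.3), using TMM factors, filterByExpr with the group as design, a single model of all 3 groups over the whole table, quasi-likelihood tests of each pair, and diffSpliceDGE for transcript usage. Calls needed a Benjamini-Hochberg adjusted p under 0.05 over all features tested, and p-values measure the spread between these libraries. Of 16066 transcripts 12379 were tested. The tests were tried on simulated data. Wilson intervals were made in Python with scipy 1.17.1.

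Alternatives were DESeq2 1.42.0, limma-voom (limma 3.58.1), DESeq2 size factors, other count filters (none, or at least 10 counts), fits of only the groups compared, a block for the replicate number or for the sample-sheet run, each library left out in turn, and a threshold of 0.01. All 3 dsxF+/+ XY and dsxF+/+ XX pairs of a run had correlated deviations (r = 0.213, 0.233 and 0.452), so MvF calls that this block changed are given beside the result. Leaving out both control libraries numbered 2 was chosen after seeing the data. Members, lists and tests were chosen with earlier results of these data known. The genes named are all members, the markers named above, AGAP029375 and the genes most like the members. At most 4 of the last were to be named, and that of Yob is left out. Other pathway genes, markers of other cell types and sequences are not analysed here: of the 13845 genes, 0 matched the reference table.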

Additional observations from a re-analysis of the deposited data

How the results depend on the processing

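Over 16 alternatives, the calls of AGAP004050-RB, AGAP000080.R653, SOA and the dsx sum in MvF, and of AGAP004050-RB and AGAP000080.R653 in MvI, were kept. Of 937 values for single members under the alternatives set at the start, 856 kept their direction and side of the threshold, 34 gained a call, 37 lost one and 10 turned direction, none of these 10 being called. The share of all features called was taken in the main fit only. The counts of calls under other settings that follow thus have no share beside them and are no result about the members. The count of member transcripts called in IvF, 0 in edgeR, was 1 with at least 10 counts in every library of a group, with the replicate block and with the run block, 2 with DESeq2, limma-voom or only the groups compared, 5 without both control libraries numbered 2, and 0 to 2 with 1 library left out. The gene sums called in IvF, 1, became 0 at an adjusted p under 0.01, 2 without both control libraries numbered 2 and 0 to 2 with 1 library left out (0 without any 1 dsxF-/- XX library or dsxF+/+ XX replicate 1 or 3, and 2 without dsxF+/+ XX replicate 2). The gene sums called in MvI, 2, became 1 at an adjusted p under 0.01, 3 with only the groups compared or without both control libraries numbered 2, and 1 to 2 with 1 library left out. Usage calls in MvI, 2, became 4 with limma-voom and without both control libraries numbered 2. In the latter setting 1 of the 4 was AGAP000080.R652, which the fit over all libraries left untested. It was high in dsxF+/+ XY libraries alone, so no p is given and its call carries no weight. The usage counts in MvI include AGAP000080.R648 and the gene-sum counts in MvI include Yob, whose calls carry no weight either. The cause of these changes in counts was not tested. Values that turned were, without dsxF+/+ XX replicate 1, femaleless in IvF (-0.16 as a sum, -0.14 as a transcript), AGAP000080.R653 in IvF (-0.12) and the usage of AGAP000080.R651 in MvF (-0.018). With each library left out in turn these ranged from -0.16 to 0.48, -0.14 to 0.51, -0.12 to 1.64 and -0.51 to 2.00. In MvF, AGAP000080.R651 turned without dsxF+/+ XY replicate 2 (-0.31, range -0.31 to 3.46, and -0.51 in usage), AGAP000080.R649 without dsxF+/+ XX replicate 2 (0.52), dsxF+/+ XY replicate 1 (0.17) or dsxF+/+ XY replicate 3 (0.32, range -1.09 to 0.52), and AGAP000080.R650 without dsxF+/+ XY replicate 3 (0.061, range -2.01 to 0.061).

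Replicate numbers did not pair the libraries (same-number r = 0.174, 0.452 and -0.0198 in MvF, -0.279, -0.146 and 0.0936 in IvF, -0.188, -0.0625 and 0.0179 in MvI). With the replicate block AGAP004050-RA missed the threshold in MvF (edgeR adjusted p = 0.0535) and MvI (0.0693), and AGAP000080.R649 passed it in IvF (0.0389) and MvI (0.0397). Depth limits the XX values of AGAP000080.R648, R652 and R653, which rest on 36 counts or fewer per group.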

Other observations

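Among 8681 genes with a mean of at least 5 CPM, the gene whose level over the 9 libraries was most like that of each member was found by Pearson's r of log2 CPM, as a description. The points share library, depth and the division into 3 groups. The gene most like Yob is not given, as at most 4 were to be named. For dsx this was AGAP002419 (r = 0.995), whose mean was 1381 normalized counts in dsxF+/+ XY libraries, 5929 in dsxF-/- XX libraries and 11827 in dsxF+/+ XX libraries. For fru it was AGAP007490 (r = 0.974), with 3209 in dsxF+/+ XY libraries, 4737 in dsxF-/- XX libraries and 2139 in dsxF+/+ XX libraries. For femaleless it was AGAP008827 (r = 0.987) and for SOA AGAP007006 (r = 0.989), the last with 6640.3 in dsxF+/+ XY libraries, 4941 in dsxF-/- XX libraries and 3205 in dsxF+/+ XX libraries. These 4 genes are not named in the sources used here.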
